A study of Mus musculus with 45 samples.

Results

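The genes described here are the growth arrest and p53 target genes Cdkn1a, Gadd45a, Gadd45b, Gadd45g, Mdm2, Ccng1, Bax, Btg2, Ccnd1 and Myc, measured in 45 mouse hearts on 1 Affymetrix array each. They were chosen by name, with earlier results of these data known. A probe set was taken for a gene when the array annotation gave that symbol alone. This gave 18 probe sets for 9 of the 10 genes, out of 22690 probe sets on the array, 20380 of which were annotated with 1 gene. Bax and the p53 gene itself were not analysed here, since no probe set was annotated with either alone. Values are log2 expression values as deposited, so a difference of 1 is a 2-fold difference, and a probe set's level is not compared with that of another probe set. All animals were male C57BL/6 mice, 15 weeks old when exposures began. Regular weight (RW) mice ate a regular diet with about 5 kcal% fat. For diet-induced obesity (DIO), others were given chow of 60 kcal% fat for 9 weeks before the exposures, from 6 weeks of age. Within each diet, mice breathed filtered air (sham controls, SC), mainstream smoke (MS, the smoke drawn through a cigarette) or sidestream smoke (SS, the smoke from its burning end). Exposure was nose-only for 5 hours a day, with 8 exposures in 2 weeks, and hearts were taken on the following day. There were 8 hearts each from RW-SC, RW-MS, DIO-SC and DIO-SS mice, 7 from RW-SS mice and 6 from DIO-MS mice, labelled as biological replicates. The mainstream and sidestream comparisons within a diet share their air controls.

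The p53 protein is a transcription factor that accumulates after DNA damage and other stress and switches on genes that stop the cell cycle, repair DNA or kill the cell. Cdkn1a encodes p21, an inhibitor of cyclin-dependent kinases, and the GADD45 proteins are small stress sensors that bind p21, PCNA and the kinase MAP3K4. Mdm2 encodes the ubiquitin ligase that degrades p53 and so closes a feedback loop, while cyclin G1 (Ccng1) and the antiproliferative protein BTG2 are further p53 targets. Ccnd1 encodes cyclin D1, which drives entry into the cell cycle, and Myc encodes a growth-promoting transcription factor that can repress Cdkn1a. Most adult cardiac muscle cells have left the cell cycle, and several of these genes also answer to metabolic and hormonal signals without p53.

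The promoters of Cdkn1a and of the 3 GADD45 genes are shown because these 4 genes moved differently from one another in the same hearts. Each sequence runs 5′ to 3′ from 250 bases before to 50 bases after a RefSeq transcription start (build GRCm38.p6), at chr17:29090729-29091028 on the plus strand for Cdkn1a (the upstream of its 2 listed starts), chr6:67037358-67037657 on the minus strand for Gadd45a, chr10:80929841-80930140 on the plus strand for Gadd45b and chr13:51846425-51846724 on the plus strand for Gadd45g. Capitals mark p53 half-sites, the E-box CACGTG and the CCAAT box, searched on both strands.
Cdkn1a: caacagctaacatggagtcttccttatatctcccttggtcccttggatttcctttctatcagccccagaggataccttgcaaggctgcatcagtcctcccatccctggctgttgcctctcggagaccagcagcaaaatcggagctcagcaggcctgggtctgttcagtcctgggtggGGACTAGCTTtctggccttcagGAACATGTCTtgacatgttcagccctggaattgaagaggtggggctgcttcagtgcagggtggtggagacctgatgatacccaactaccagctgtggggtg
Gadd45a: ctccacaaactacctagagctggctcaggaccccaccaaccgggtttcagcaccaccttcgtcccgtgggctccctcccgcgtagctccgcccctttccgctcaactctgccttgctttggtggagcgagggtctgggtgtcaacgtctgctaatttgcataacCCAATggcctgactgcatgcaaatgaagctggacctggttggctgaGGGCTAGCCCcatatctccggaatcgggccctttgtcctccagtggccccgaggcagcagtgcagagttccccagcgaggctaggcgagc
Gadd45b: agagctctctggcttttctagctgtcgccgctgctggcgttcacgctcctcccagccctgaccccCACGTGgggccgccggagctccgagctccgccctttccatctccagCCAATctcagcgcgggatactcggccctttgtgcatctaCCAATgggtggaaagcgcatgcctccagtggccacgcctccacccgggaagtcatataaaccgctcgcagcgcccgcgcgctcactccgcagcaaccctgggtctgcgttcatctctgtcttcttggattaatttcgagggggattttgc
Gadd45g: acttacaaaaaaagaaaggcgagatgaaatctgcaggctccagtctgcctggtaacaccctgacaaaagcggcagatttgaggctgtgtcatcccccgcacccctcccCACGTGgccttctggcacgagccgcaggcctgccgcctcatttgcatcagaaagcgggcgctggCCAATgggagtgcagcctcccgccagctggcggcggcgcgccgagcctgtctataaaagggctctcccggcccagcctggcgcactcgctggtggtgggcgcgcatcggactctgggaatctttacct
The Cdkn1a window shown held 2 p53 half-site matches, the window at its other listed start held 0, and the Gadd45a window held 1, a motif found in 8.36% of 32851 mouse promoter windows of the same length. The Gadd45b and Gadd45g windows each held 1 E-box match, found in 7.15% of windows. A CCAAT box, found in 37.4% of windows, occurred 1 time in Gadd45a, 2 times in Gadd45b and 1 time in Gadd45g. These matches describe the letters in a window and are not evidence of binding.

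Heart muscle markers were high on every array, and a few arrays stood apart in other markers. All 10 cardiomyocyte markers were above the limit for dim genes, and their summed level differed little between groups (array means from 13.71 to 13.85). The 8 atrial markers were low on RW-MS 2, 6 and 8, where their mean stood at -3.81, -3.20 and -3.11 (log2) relative to the average over all arrays, against -0.58 on the next lowest array. RW-MS 7 and RW-SC 1 had leukocyte marker means 1.34 and 1.15 above average, against at most 0.44 elsewhere. Lung and airway marker means were 1.60, 1.36, 1.32 and 0.95 above average on RW-SC 7, RW-SC 8, DIO-SC 5 and DIO-SS 8. Elsewhere they were at most 0.10 above it. These high means came mainly from Scgb1a1, which ran from 3.32 to 11.56 over all arrays. The other lung and airway markers stayed within narrow ranges. Sftpc ran from 4.82 to 5.54, Sftpb from 5.47 to 6.28, Sftpa1 from 3.567 to 4.715 and Ager from 4.67 to 5.40. RW-SS 7 had the largest difference between 3′ and 5′ probe sets of Gapdh (0.935, against at most 0.396 elsewhere). Fat markers varied widely, with array means from 5.60 to 8.88. None of the 7 tested passed in the comparisons of smoke with air, where 4.55% to 31.8% of all tested genes did. At most 1 of the 7 had an unadjusted p under 0.05 in any of those comparisons. RW-MS 2, 6 and 8 were also low in fat markers (-1.47, -0.80 and -1.21) and in fibroblast markers (-0.40, -0.29 and -0.45). Of 8 listed red cell markers 3 were tested, and all 3 rose with sidestream smoke in RW mice, by a median of 0.71. Of all tested genes 11.7% rose there. In bulk tissue, fewer cells of a type and less RNA per cell cannot be told apart.

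By the brightest probe set of each gene, smoke changed 3 of the 9 measured genes in each diet with each kind of smoke. These were not one fixed set. Gadd45a rose in all 4 comparisons. Cdkn1a fell with mainstream smoke in both diets, and Ccnd1 fell with sidestream smoke in both diets. Gadd45g rose with sidestream smoke in RW mice and fell with mainstream smoke in DIO mice. Changes were tested with limma in 1 fit of 6 group means over all 45 arrays, with p-values adjusted by Benjamini-Hochberg over 9295 genes and a threshold of 0.05. With mainstream smoke in RW mice 2 of the 9 rose and 1 fell, where 6.86% of all tested genes changed (2.86% higher, 4% lower). With sidestream smoke in RW mice 2 rose and 1 fell, where 24.6% of all changed (11.7% higher, 13% lower). With mainstream smoke in DIO mice 1 rose and 2 fell, where 4.55% of all changed (3.66% higher, 0.893% lower). With sidestream smoke in DIO mice 2 rose and 1 fell, where 31.8% of all changed (23% higher, 8.82% lower). A count of 3 of 9 is near the background for sidestream smoke. The median change over the 9 genes was between -0.05 and 0.02 in these 4 comparisons, so the genes did not move one way as a group.

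**Figure D1:**
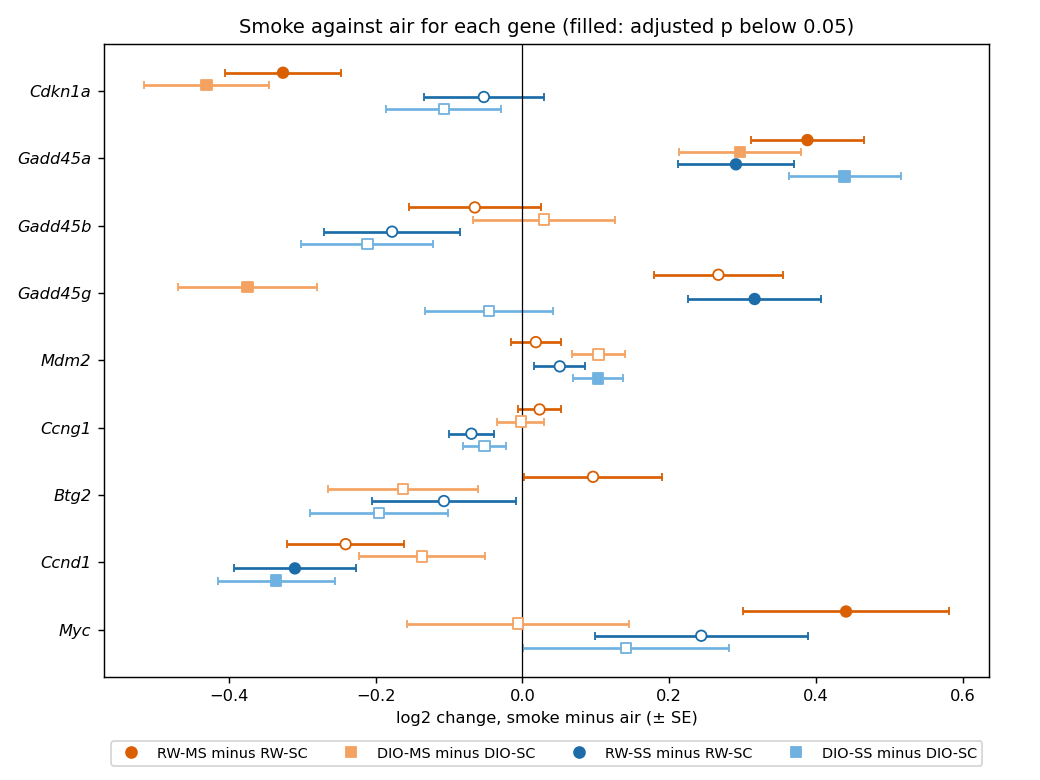
Log2 change in each smoke group against its air controls for the 9 measured genes, with the standard error of limma's fit as bars (n = 6 to 8 arrays a group). Filled symbols have an adjusted p below 0.05. Gadd45a lies to the right of 0 in all 4 comparisons, Cdkn1a lies furthest to the left with mainstream smoke, and Gadd45g takes both directions.

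Gadd45a, which encodes a stress sensor that can hold cells before mitosis, was higher in every smoke group than in air. In RW mice breathing air its lowest, median and highest log2 values were 7.74, 7.96 and 8.15. They were 8.03, 8.42 and 8.59 with mainstream smoke and 8.00, 8.18 and 8.51 with sidestream smoke. All 15 smoke-exposed RW hearts lay above the mean of the air controls (7.95), although the groups overlapped at their edges. The rise was 0.39 ± 0.077 (SE; 95% interval 0.23 to 0.54; adjusted p = 0.000764 by limma) with mainstream smoke, or 1.31-fold. With sidestream smoke it was 0.29 ± 0.079 (0.13 to 0.45; adjusted p = 0.00606 by limma).

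In DIO mice Gadd45a rose as well, from air levels that differed from those of RW mice by -0.14 (adjusted p = 0.202 by limma). The lowest, median and highest values were 7.62, 7.80 and 8.08 in air and 8.11, 8.27 and 8.41 with sidestream smoke. Every DIO-SS heart lay above every DIO-SC heart, and the rise was 0.44 ± 0.077 (0.28 to 0.59; adjusted p = 4.22e-05 by limma), or 1.36-fold. With mainstream smoke the values ran from 7.95 through a median of 8.05 to 8.33, and 2 of the 6 hearts (DIO-MS 5 and 6, at 8.31 and 8.33) lay clearly above the rest. That rise was 0.30 ± 0.083 (adjusted p = 0.0302 by limma), and it passed the threshold no longer without DIO-MS 5 (adjusted p = 0.105), DIO-MS 6 (0.106), DIO-SC 5 (0.0687) or DIO-SC 8 (0.0543). It also missed it after a further quantile normalization (0.0547) or when only the DIO-SC and DIO-MS arrays were fitted (0.0529). The response did not differ detectably between diets. The interaction, which is the change in DIO minus the change in RW mice, was -0.09 (95% interval -0.32 to 0.14) for mainstream and 0.15 (-0.07 to 0.37) for sidestream smoke, with limma adjusted p-values of 0.822 and 0.315. On the 3 arrays with low atrial markers Gadd45a was at 8.49, 8.42 and 8.59, and without them the rise in RW-MS hearts was 0.29 (adjusted p = 0.0379 by limma). Within groups Gadd45a was lower where fat markers were higher (r = -0.57 over 45 arrays after group means were subtracted). This was not particular to fat. The same r was -0.51 with fibroblast, -0.50 with leukocyte, -0.41 with atrial, -0.38 with smooth muscle and 0.39 with cardiomyocyte markers. With the remaining marker lists it lay between -0.15 and 0.17. With the fat marker mean as a covariate the 4 changes were 0.40, 0.32, 0.31 and 0.47 (RW-MS, RW-SS, DIO-MS and DIO-SS), all past the threshold.

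**Figure D2:**
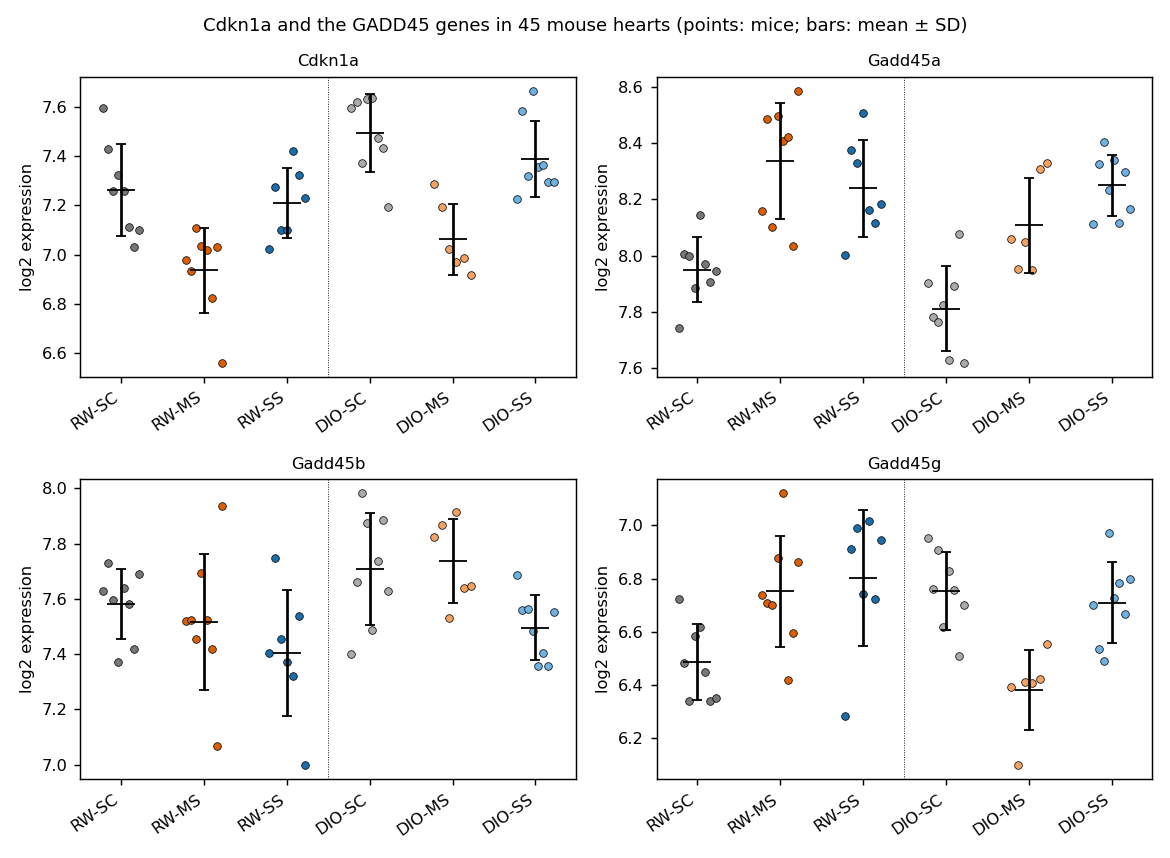
Log2 expression of Cdkn1a, Gadd45a, Gadd45b and Gadd45g in the 6 groups (points, 1 per mouse; bars, mean and SD; n = 6 to 8). Cdkn1a is lowest in both mainstream groups, Gadd45a is higher in all 4 smoke groups than in the air controls of the same diet, and Gadd45g is lowest in DIO-MS (mean 6.38).

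Cdkn1a fell with mainstream smoke, opposite to Gadd45a, though both are p53 targets. In RW mice its lowest, median and highest values were 7.03, 7.26 and 7.59 in air and 6.56, 6.998 and 7.11 with mainstream smoke. In DIO mice they were 7.19, 7.53 and 7.63 in air and 6.92, 7.005 and 7.29 with mainstream smoke. All 14 mainstream-exposed hearts lay below the air mean of their diet, and the lowest was RW-MS 8. The change was -0.33 ± 0.079 (95% interval -0.48 to -0.17; adjusted p = 0.00641 by limma) in RW mice and -0.43 ± 0.085 (-0.60 to -0.26; adjusted p = 0.00168 by limma) in DIO mice. A second Cdkn1a probe set fell as well, by 0.27 and 0.25 on the log2 scale, past the threshold in both diets.

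With sidestream smoke the Cdkn1a change was -0.05 (95% interval -0.22 to 0.11) in RW and -0.11 (-0.27 to 0.05) in DIO mice, neither past the threshold by this probe set. By the second probe set the DIO change of -0.17 passed it (adjusted p = 0.0353 by limma). The kinds of smoke were also compared directly. By the brightest probe sets, 1 of the 9 genes in RW mice and 2 of 9 in DIO mice passed the threshold, all higher with sidestream smoke. Of all tested genes 5.82% passed in RW mice (2.19% higher, 3.63% lower) and 2.55% in DIO mice (1.59% higher, 0.958% lower). Other probe sets were lower with sidestream than with mainstream smoke in RW mice. The changes were -0.42 for Ccnd1 (1417419_at), -0.32 for Mdm2 (1427718_a_at) and -0.24 for Ccng1 (1450016_at), all past the threshold. Without RW-SS 7 that of Ccng1 was -0.14 and did not pass. Cdkn1a was higher with sidestream than with mainstream smoke by 0.27 ± 0.081 in RW (adjusted p = 0.0382 by limma) and 0.32 ± 0.085 in DIO mice (adjusted p = 0.0345 by limma). The second probe set gave 0.29 in RW mice (adjusted p = 0.00427), and in DIO mice 0.07, which did not pass (adjusted p = 0.574). The RW call was lost without any 1 of RW-MS 2, 6 or 8 or RW-SS 2, 5, 6 or 7 (adjusted p at most 0.0853). The DIO call was lost without any 1 of DIO-MS 2, 3 or 4 or DIO-SS 2, 4 or 5 (adjusted p at most 0.0943).

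With mainstream smoke in RW mice, Cdkn1a was lowest on the arrays low in atrial markers. Those arrays were also low in fat and fibroblast markers. RW-MS 2, 6 and 8 had Cdkn1a values of 6.93, 6.82 and 6.56, the lowest of their group, while the other 5 RW-MS hearts lay between 6.98 and 7.11. Without those 3 arrays the change was -0.23 and did not pass the threshold (adjusted p = 0.118 by limma), and with the atrial marker mean as a covariate it was -0.25 (adjusted p = 0.0733). In DIO mice no array had an atrial marker mean below -0.58, and Cdkn1a fell there by 0.43 on the log2 scale. After group means were subtracted, r of Cdkn1a was 0.30 with atrial, 0.18 with fat, 0.32 with fibroblast and 0.35 with smooth muscle markers. The part of tissue content in these changes was not tested.

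Gadd45g, a GADD45 member that many hormones and cytokines induce, responded to smoke differently in the 2 diets. Its lowest, median and highest values in RW mice were 6.34, 6.46 and 6.72 in air, 6.42, 6.72 and 7.12 with mainstream smoke and 6.28, 6.91 and 7.02 with sidestream smoke. In DIO mice they were 6.51, 6.76 and 6.95 in air, 6.10, 6.41 and 6.55 with mainstream smoke and 6.49, 6.71 and 6.97 with sidestream smoke. Of the 7 RW-SS hearts 6 lay above the highest RW-SC heart, and RW-SS 1 lay below all RW-SC hearts. All but 1 of the DIO-MS hearts lay below every DIO-SC heart. Gadd45g rose by 0.32 ± 0.091 with sidestream smoke in RW mice (adjusted p = 0.00903 by limma) and fell by 0.37 ± 0.095 on the log2 scale with mainstream smoke in DIO mice (adjusted p = 0.0148 by limma). The change of 0.27 with mainstream smoke in RW mice missed the threshold (adjusted p = 0.0547), as did that of -0.05 with sidestream smoke in DIO mice.

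The difference between diets was tested directly. The mainstream interaction for Gadd45g was -0.64 ± 0.13 (95% interval -0.90 to -0.38; adjusted p = 0.0106 by limma), and it was the single one of the 9 genes past the threshold, where 0.226% of all tested genes passed (0.151% higher, 0.0753% lower). The sidestream interaction was -0.36 ± 0.13 (-0.62 to -0.11; adjusted p = 0.0291 by limma), again the single one of the 9 by the brightest probe sets. There 28.4% of all tested genes passed (18.3% higher, 10.1% lower). The first held whichever single array was left out. The second did not hold without RW-SS 3 (adjusted p = 0.0509) or RW-SS 5 (0.0532). Both interactions use the same RW-SC and DIO-SC hearts, and in those Gadd45g was 0.27 higher in DIO mice. With sidestream smoke the diets differed by -0.09 (adjusted p = 0.451 by limma). The fall with mainstream smoke in DIO mice did not hold without DIO-MS 2, the lowest heart of all (-0.32, adjusted p = 0.0567). Gadd45g was also higher with sidestream than with mainstream smoke in DIO mice, by 0.33 (adjusted p = 0.0477 by limma), a call that was lost in 22 of 45 fits that each left out 1 array.

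Among tested genes other than unnamed clones, the one whose values followed Gadd45g most closely over the 45 arrays was Ddit4 (Pearson's r = 0.75). The next were Nxn (0.74) and Trpc4ap (0.59). Ddit4 encodes an inhibitor of mTOR signalling that stress hormones and low oxygen induce. After each group's mean was subtracted, r with Ddit4 was 0.65, so the likeness was also present among mice of 1 group. The arrays share their normalization, and r is given as a description. Ddit4 rose by 0.56 with mainstream smoke and by 1.09 with sidestream smoke in RW mice (adjusted p = 0.0424 and 1.7e-05 by limma). In DIO mice its changes were -0.57 and -0.25, neither past the threshold, and its mainstream and sidestream interactions were -1.13 and -1.34, both past it.

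**Figure D3:**
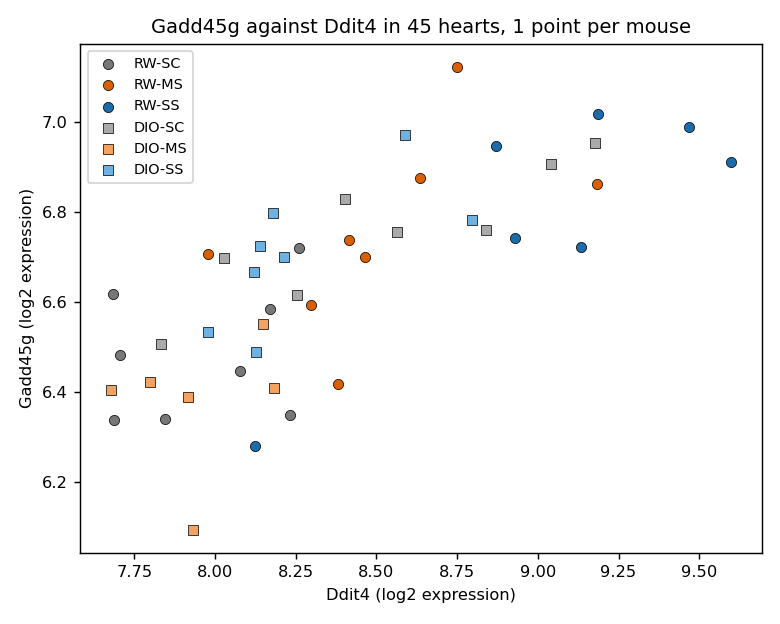
Log2 expression of Gadd45g (vertical) against Ddit4 (horizontal), 1 point per mouse, in the 6 groups. The RW-SS hearts other than RW-SS 1 lie at the upper right and the DIO-MS hearts at the lower left, with r = 0.75 over the 45 arrays.

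Gadd45b, the member of the family best known from NF-kappaB and TGF-beta signalling, passed the threshold in none of the comparisons by its brightest probe set. In air its lowest, median and highest values were 7.37, 7.61 and 7.73 in RW mice and 7.40, 7.70 and 7.98 in DIO mice. With sidestream smoke they were 6.997, 7.40 and 7.75 in RW mice and 7.36, 7.52 and 7.69 in DIO mice. The groups overlapped, and the sidestream changes were -0.18 (95% interval -0.37 to 0.01) and -0.21 (-0.39 to -0.03; adjusted p = 0.0664 by limma). Without RW-SS 7, the array with the largest 3′ to 5′ difference, the RW change was -0.11, and the DIO change of -0.21 passed the threshold (adjusted p = 0.0483). The other 2 probe sets disagreed with each other in RW mice with sidestream smoke. Probe set 1449773_s_at fell by 0.34 on the log2 scale (adjusted p = 0.0107), while 1420197_at rose by 0.20 (adjusted p = 0.0434), both in limma's fit of all 14488 probe sets above the limit for dim genes. Without RW-SS 7 these changes were -0.29 and 0.23, both past the threshold. No direction is therefore given for Gadd45b.

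Mdm2 and Ccng1 act in the p53 feedback loop, and both changed little by their brightest probe sets. Mdm2 ranged from 8.31 through 8.41 to 8.52 in DIO mice in air and from 8.45 through 8.51 to 8.55 with sidestream smoke. All 8 DIO-SS hearts lay above the DIO-SC mean, a rise of 0.10 ± 0.034 (adjusted p = 0.0176 by limma). The difference was 0.03 after a further quantile normalization (adjusted p = 0.553) and 0.03 for the mean of both probe sets (adjusted p = 0.536). The median of all tested genes lay 0.04 higher in that comparison. A second Mdm2 probe set, 1427718_a_at, behaved differently in RW mice. It ranged from 6.80 through 7.004 to 7.04 in RW-SC hearts and from 6.33 through 6.66 to 6.74 in RW-SS hearts. The groups did not overlap, and the change was -0.35 ± 0.063 (adjusted p = 5.06e-05 in limma's fit of every probe set), against 0.05 by the first probe set. This second probe set was also 0.46 higher in DIO-SS than in RW-SS hearts (adjusted p = 5.78e-07 by limma), again with no overlap. RW-SS 7 was the lowest of its group for this probe set, and without it these differences were -0.30 and 0.41, both past the threshold. Which transcripts of Mdm2 each probe set reports was not tested.

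For Ccng1 the brightest probe set stayed within a narrow span, from 12.62 to 12.92 over all 45 arrays, and passed no threshold. Its change with sidestream smoke was -0.07 (95% interval -0.13 to -0.01) in RW and -0.05 (-0.11 to 0.01) in DIO mice. Probe set 1450016_at fell by 0.20 on the log2 scale with sidestream smoke in RW mice (adjusted p = 0.0388 by limma), where RW-SS 7 stood at 9.63 and the other 6 hearts at 10.24 to 10.37. Without RW-SS 7 that change was -0.10 and did not pass the threshold (adjusted p = 0.186), so it rests on 1 array.

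Ccnd1 fell with sidestream smoke in both diets, and its 3 probe sets did so together. By the brightest probe set, the lowest, median and highest values in RW mice were 9.09, 9.26 and 9.30 in air and 8.45, 8.95 and 9.13 with sidestream smoke. In DIO mice they were 9.05, 9.33 and 9.48 in air and 8.68, 9.06 and 9.20 with sidestream smoke. All 15 sidestream-exposed hearts lay below the air mean of their diet. The changes were -0.31 ± 0.083 (95% interval -0.48 to -0.14; adjusted p = 0.00499 by limma) and -0.34 ± 0.080 (-0.50 to -0.17; adjusted p = 0.00146 by limma). With mainstream smoke the brightest probe set changed by -0.24 in RW (adjusted p = 0.0572) and -0.14 in DIO mice (adjusted p = 0.429), short of the threshold.

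Probe set 1417419_at of Ccnd1 gave larger differences. It ran from 8.24 through 8.45 to 8.64 in RW-SC, from 7.92 through 8.03 to 8.27 in RW-MS and from 7.36 through 7.63 to 7.80 in RW-SS hearts. The air and sidestream groups were separate, and so were the mainstream and sidestream groups. The change with sidestream smoke was -0.83 ± 0.068 in RW mice (adjusted p = 5.07e-12) and -0.54 ± 0.066 in DIO mice (adjusted p = 1.5e-07), and with mainstream smoke it was -0.41 and -0.31, all past the threshold in limma's fit of every probe set. For this probe set the sidestream interaction was 0.28 (adjusted p = 0.0234), while for the brightest one it was -0.03. The third probe set, 1448698_at, changed by -0.44 and -0.21 with sidestream smoke in RW and DIO mice, both past the threshold, and by -0.26 with mainstream smoke in RW mice, also past it (adjusted p = 0.031). Its sidestream interaction was 0.23 (adjusted p = 0.115), and 0.29 without RW-SS 7 (adjusted p = 0.0281).

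**Figure D4:**
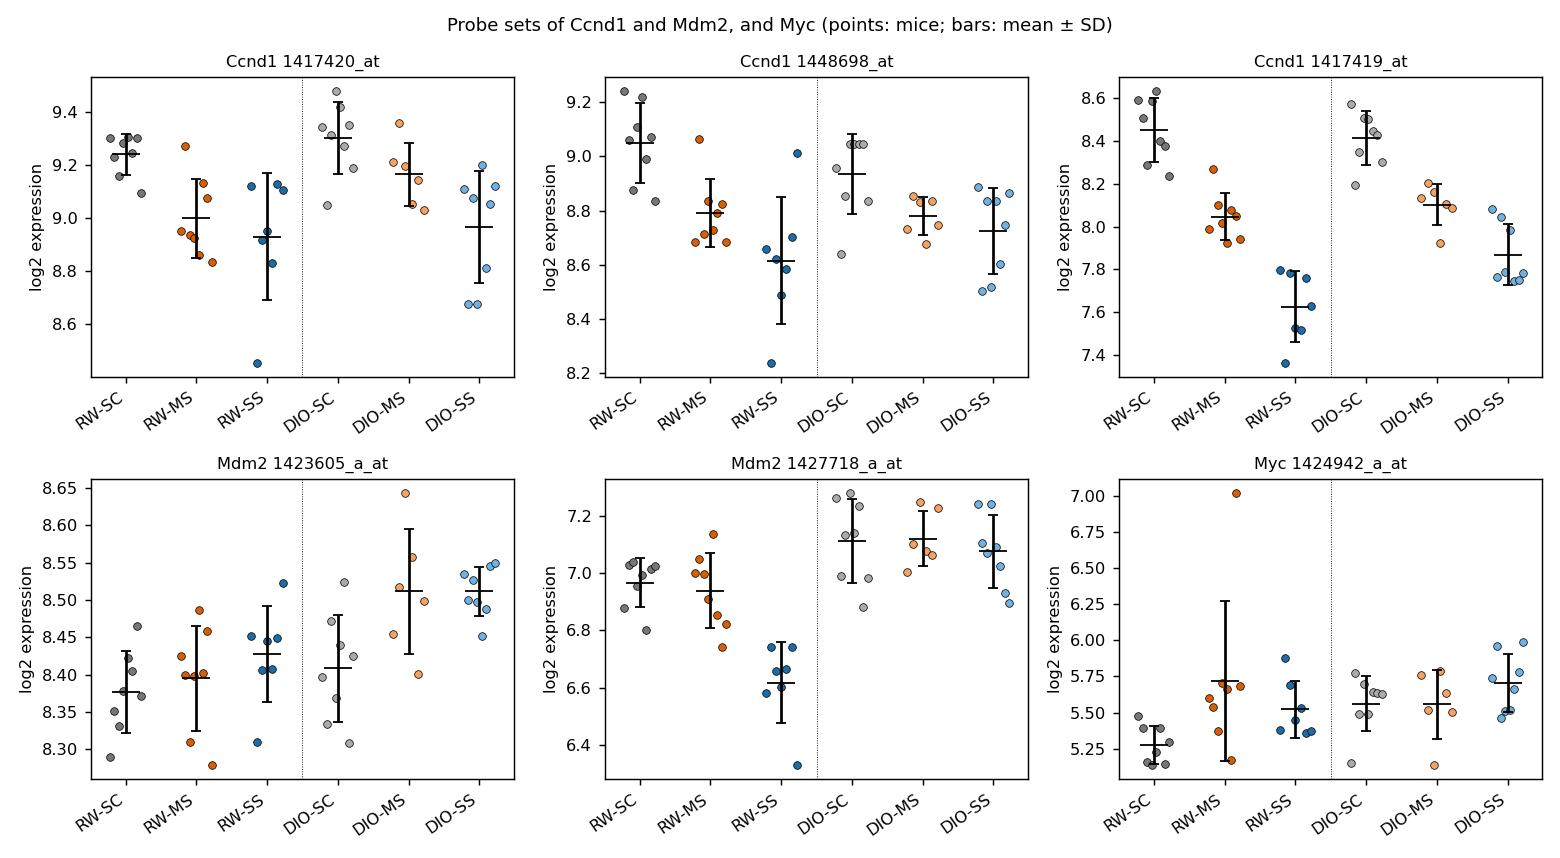
Log2 expression by probe set for Ccnd1 (top row) and for Mdm2 and Myc (bottom row) in the 6 groups (points, 1 per mouse; bars, mean and SD; n = 6 to 8). All 3 Ccnd1 probe sets have lower means with sidestream smoke than in air, and 1 RW-MS heart stands apart for Myc (7.02). For Mdm2 1427718_a_at the RW-SS hearts (6.33 to 6.74) lie below all RW-SC and DIO-SS hearts, and RW-MS 7 lies next to them (6.74).

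Myc and Btg2 were set apart by 1 array. Myc ranged from 5.14 through 5.26 to 5.47 in RW-SC hearts and from 5.17 through 5.63 to 7.02 in RW-MS hearts, and the next highest RW-MS value was 5.70. The rise was 0.44 ± 0.14 (adjusted p = 0.0473 by limma), and without RW-MS 7 the change was 0.26 (adjusted p = 0.0924). The call was lost in 24 of 45 fits that each left out 1 array. Myc did not pass the threshold with sidestream smoke in RW mice (0.24) or with either smoke in DIO mice (-0.01 and 0.14). Btg2 passed it in none of the comparisons by its brightest probe set, and RW-MS 7 was again the highest heart, at 9.67 where the group median was 8.80. With sidestream smoke in DIO mice that probe set changed by -0.20, with all 8 hearts below the air mean (adjusted p = 0.109 by limma), and it passed the threshold in 4 of 14 alternatives. The second Btg2 probe set, 1448272_at, fell there by 0.29 on the log2 scale (adjusted p = 0.0152 in limma's fit of every probe set).

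On that array markers of lymphocytes were high too. The T cell gene Cd3g was at 8.58 and the common leukocyte gene Ptprc at 10.08, where the medians of the other 44 arrays were 3.51 and 6.69. RW-SC 1 carried the B cell genes Ms4a1 (8.41) and Cd79b (8.24), and its Myc and Btg2 values were 5.47 and 8.83. DIO-SC 2 had Cd3g at 6.50 and Ptprc at 8.45, with Myc at 5.77, the highest of its group, and Btg2 at 9.26. After group means were subtracted, r with the leukocyte marker mean over the 45 arrays was 0.64 for Myc and 0.59 for Btg2, given as a description. Over the whole list of 11 leukocyte markers, the array means ran from 5.90 to 7.44 in RW-MS and from 5.96 to 7.26 in RW-SC hearts. With the leukocyte marker mean as a covariate, added after this was seen, the Myc change in RW-MS hearts was 0.46 (adjusted p = 0.00487 by limma). The part of these cells in the result was not tested further.

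**Figure D5:**
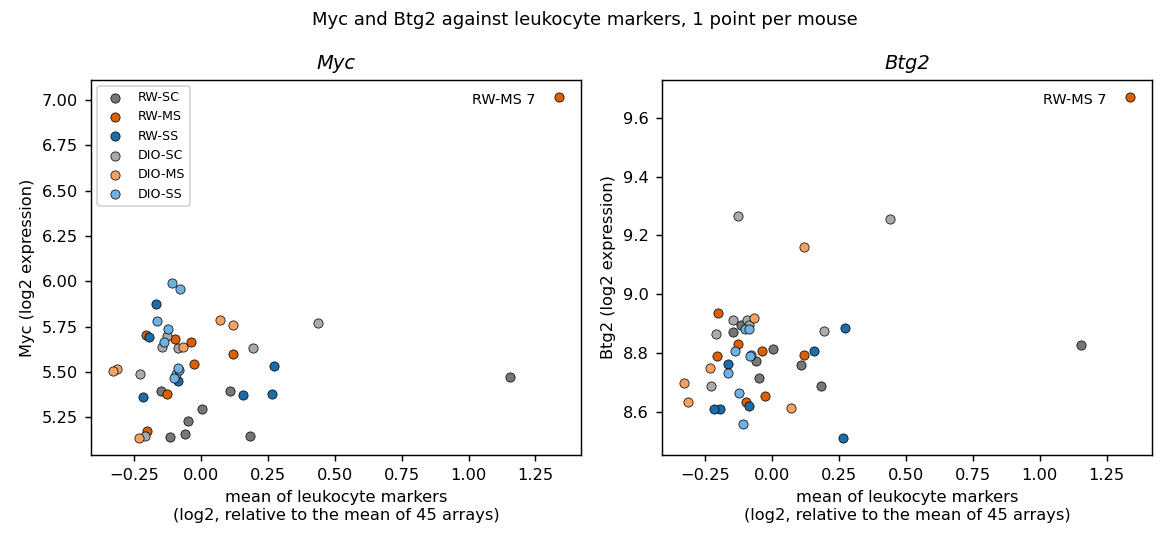
Log2 expression of Myc (left) and Btg2 (right) against the mean of the leukocyte markers relative to its average over 45 arrays (horizontal), 1 point per mouse. RW-MS 7 is highest on every axis (1.34 for the markers), while RW-SC 1, with a marker mean of 1.15, lies within the range of the other hearts for both genes.

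In mice breathing air, 2 of the 9 genes were higher in DIO than in RW hearts, Cdkn1a and Gadd45g, where 20.2% of all tested genes passed the threshold (6.92% higher, 13.3% lower). Cdkn1a was 0.23 ± 0.079 higher in DIO-SC than in RW-SC hearts (adjusted p = 0.0316 by limma), and its second probe set was 0.25 higher (adjusted p = 0.00462). Gadd45g was 0.27 ± 0.088 higher (adjusted p = 0.0253 by limma), with all 8 DIO-SC hearts above the RW-SC mean. Both calls were fragile to single arrays. That of Cdkn1a was lost without any 1 of RW-SC 6, 7 or 8 or DIO-SC 1, 2, 4 or 5 (adjusted p at most 0.0764), and that of Gadd45g without any 1 of RW-SC 3 or 7 or DIO-SC 1 or 3 (adjusted p at most 0.0536). Markers of several cell types moved with the diet in air. The median change was -1.08 over 7 tested fat markers (1 past the threshold, 3 with an unadjusted p under 0.05) and -0.22 over 8 leukocyte markers (1 past it, 4 with an unadjusted p under 0.05), and 4 of 10 cardiomyocyte markers were lower. With the fat marker mean as a covariate the differences were 0.25 for Cdkn1a and 0.29 for Gadd45g, and with the leukocyte marker mean 0.25 and 0.27, all past the threshold.

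Between diets with mainstream smoke, 2 of the 9 genes passed the threshold by the brightest probe sets, 1 higher and 1 lower. Of all tested genes 10.6% did (5.14% higher, 5.44% lower). Gadd45g was lower in DIO-MS than in RW-MS hearts by 0.37 on the log2 scale (change -0.37 ± 0.095; adjusted p = 0.00695 by limma), the reverse of its order in air. Mdm2 was 0.12 ± 0.037 higher (adjusted p = 0.0313), a call lost without any 1 of RW-MS 3 or 8 or DIO-MS 2, 3 or 4 (adjusted p at most 0.128). The second Cdkn1a probe set was 0.27 higher in DIO-MS than in RW-MS hearts (adjusted p = 0.00736 in limma's fit of every probe set). The brightest Cdkn1a probe set was 0.13 higher and did not pass (adjusted p = 0.376 by limma). With sidestream smoke, by the brightest probe sets, 0 of the 9 genes passed limma's threshold between diets and 2 had an unadjusted p under 0.05, where 32.6% of all tested genes passed (19.7% higher, 12.9% lower). Another probe set was higher in DIO-SS than in RW-SS hearts for 4 genes, by 0.46 for Mdm2, 0.24 for Ccnd1 (1417419_at), 0.32 for Gadd45b (1449773_s_at) and 0.22 for Ccng1 (1450016_at), all past the threshold. For Ccng1 it was 0.12 without RW-SS 7 and did not pass. By 1450017_at Ccng1 was higher by 0.12 (adjusted p = 0.0461 by limma), and without RW-SS 7 by 0.08, which did not pass (adjusted p = 0.185).

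Genes listed beside these in the same pathways are read against the shares of all tested genes that passed: 6.86% and 24.6% with mainstream and sidestream smoke in RW mice, and 4.55% and 31.8% in DIO mice. Of 32 tested genes in a list of p53 pathway genes, 1 rose and 2 fell with mainstream smoke in RW mice, 5 rose and 4 fell with sidestream smoke in RW mice, 1 rose and 0 fell with mainstream smoke in DIO mice, and 8 rose and 2 fell with sidestream smoke in DIO mice. With sidestream smoke these counts are near the share of all genes. The median change of the list was at most 0.04, near that of all tested genes. Sesn1, a p53 target that restrains mTOR, rose by 0.25 with sidestream smoke in RW mice and by 0.26 with mainstream smoke in DIO mice. Ephx1, a detoxifying hydrolase, fell by 0.21 and 0.35 on the log2 scale with mainstream and sidestream smoke in RW mice. In DIO mice with sidestream smoke the DNA repair genes Xpc and Ddb2 rose by 0.21 and 0.35, and Perp, a cell adhesion gene, by 0.21. Mdm4, the partner of Mdm2, rose by 0.17 with sidestream smoke in RW mice and had a sidestream interaction of -0.23.

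Among other brakes on the cell cycle, Cdkn1b and Rbl2 rose with both kinds of smoke in both diets. Of 8 tested cyclin-dependent kinase inhibitors and pocket proteins, 2 rose with mainstream smoke in each diet and 4 rose with sidestream smoke in each diet, and 1 fell (with sidestream smoke in RW mice). Of all tested genes 2.86% and 3.66% rose with mainstream smoke in RW and DIO mice, and 11.7% and 23% with sidestream smoke. Cdkn1b, which encodes the inhibitor p27, rose by 0.20 and 0.31 in RW mice and by 0.26 and 0.30 in DIO mice (mainstream and sidestream). Rbl2, which encodes the pocket protein p130 of resting cells, rose by 0.23 and 0.30 in RW mice and by 0.18 and 0.33 in DIO mice. All 8 of these changes passed the threshold in the same direction as those of Gadd45a. Among 10 tested D cyclins, kinases and E2F factors, Ccnd2, which encodes cyclin D2, changed by -0.19 and -0.25 in RW mice and -0.15 and -0.16 in DIO mice, of which that with mainstream smoke in DIO mice missed the threshold. Ccnd3 passed it in none of these 4.

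Of 21 listed proliferation genes, such as Mcm2 and Pcna, 10 were tested, and the others were dim or had no probe set annotated with them alone. Of the 10, 0 passed limma's threshold in any of the 11 comparisons, where 0.226% to 32.6% of all tested genes passed. At most 2 in any comparison had an unadjusted p under 0.05. Of 8 tested partners of the GADD45 proteins, 1 fell with mainstream smoke in RW mice and 0 passed limma's threshold with either smoke in DIO mice, where 0 and 2 had an unadjusted p under 0.05 (mainstream and sidestream). With sidestream smoke in RW mice 4 fell, where 13% of all tested genes did, among them the stress kinase genes Mapk14 (change -0.27) and Map3k4 (-0.20) and Gadd45gip1, which encodes a GADD45-binding protein (-0.19). Of 11 tested genes of the MYC network, 0 passed limma's threshold with mainstream smoke in RW mice, and of 15 MYC target genes 0 did (1 and 2 had an unadjusted p under 0.05), where 6.86% of all tested genes passed. With sidestream smoke 1 network gene rose and 1 fell in RW mice, and 4 rose and 1 fell in DIO mice. With mainstream smoke 1 fell in DIO mice. Of the target genes 2 rose and 5 fell with sidestream smoke in RW mice, 2 rose and 3 fell in DIO mice, and 2 fell with mainstream smoke in DIO mice. Of all tested genes 11.7% rose and 13% fell with sidestream smoke in RW mice, and 23% and 8.82% in DIO mice. With mainstream smoke in DIO mice 0.893% of all tested genes fell. Of 3 tested BTG and TOB family genes, Tob2 rose by 0.35 and fell by 0.35 on the log2 scale with sidestream smoke in RW and DIO mice, with an interaction of -0.70 (adjusted p = 0.0006 by limma). Of 15 tested genes that glucocorticoids induce, among them Ddit4, 6 rose with mainstream and 9 with sidestream smoke in RW mice and 0 fell, where 2.86% and 11.7% of all tested genes rose. In DIO mice 1 rose with mainstream smoke, and 1 rose and 4 fell with sidestream smoke, where 3.66% and 23% of all tested genes rose and 0.893% and 8.82% fell. In air, 7 of the 15 were higher and 2 lower in DIO than in RW hearts. For 8 of these 15 the sidestream interaction was negative and past the threshold, as it was for Gadd45g and for 10.1% of all tested genes. Among 10 tested genes of the BCL2 family of cell death regulators, to which Bax belongs, 1 rose with mainstream smoke in each diet and 2 rose with sidestream smoke in each diet, and 1 fell (with sidestream smoke in DIO mice). With sidestream smoke these counts do not exceed the shares of 24.6% and 31.8% over all tested genes. Bcl2l11, which encodes the death-promoting protein BIM, rose by 0.35 and 0.43 with mainstream and sidestream smoke in DIO mice, while Bcl2l1, which encodes the survival protein BCL-XL, rose by 0.23 in RW mice and changed by -0.16 in DIO mice with sidestream smoke. Among 17 tested immediate early genes, which cells switch on within minutes of a stimulus, 1 rose and 2 fell with mainstream and 2 rose and 4 fell with sidestream smoke in RW mice, where 6.86% and 24.6% of all tested genes passed. In DIO mice 0 rose and 2 fell with mainstream and 1 rose and 6 fell with sidestream smoke, where 4.55% and 31.8% of all tested genes passed. In air 6 were higher in DIO than in RW hearts, where 6.92% of all tested genes were, among them Jun (by 0.54), Atf3 (by 0.40) and Ier3 (by 0.37).

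The measured genes did not form one pattern over the 45 hearts. The strongest correlation of Gadd45a with another of them was that with Ccnd1 (r = -0.58), and it was -0.17 once group means were subtracted. Gadd45a and Cdkn1a had r = -0.49, and -0.24 after subtraction. Over the tested genes other than unnamed clones, those most like Gadd45a were Fdft1, of sterol synthesis (r = 0.85), Gpcpd1 (0.84) and Rit1 (0.83). Those most like Cdkn1a were Tubb2a (0.70), Stbd1 (0.68) and Timp1 (0.67), and those most like Ccnd1 were Klhdc8a (0.78), Ndufaf4 (0.76) and Eef1e1 (0.75).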

How the data were processed

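Total RNA from 45 hearts, 3 µg each, was hybridized to 1 Affymetrix array per mouse. The authors deposited 1 log2 value per probe set and array, computed by RMA (no version given) per the submitters' processing notes. Scan dates and RMA settings were not stated there. The labels disagree on the exposure: 1 protocol speaks of an LPS study, while titles and treatment protocol name smoke, which was followed. Values ranged from 2.12 to 14.77. No depth applies to arrays, and their number limits the precision.

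Of 22690 probe sets (64 controls), 20380 had 1 annotated gene. Each gene was represented by its brightest probe set (highest mean). Of 12393 genes, the dimmest 25% (under 4.90) were dropped. The other 9295 entered 11 comparisons by lmFit and eBayes of limma 3.58.1 under R 4.3.3 (two-sided, Benjamini-Hochberg within a comparison). Fits of every probe set were adjusted over all probe sets tested. Tests were checked on simulated data. Python 3.11.15, pandas 2.3.3 and matplotlib 3.10.9 were used otherwise. The alternatives were other filters, probe set rules, array weights, fits, normalization, blocks, covariates and arrays left out.

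The genes, lists and tests were chosen with earlier results of these data known. Named were all listed genes and, from each pathway list in a comparison, up to 3 genes past the threshold with the smallest adjusted p, close family members and the 3 genes of most similar pattern.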

Additional observations from a re-analysis of the deposited data

Results flagged for a closer look

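In 54 sets of values (9 genes in 6 groups, by the brightest probe set), 5 held an array far from the rest of its group by Dixon's criterion, which chance gives in about 1 in 20. Gadd45g was low at 6.10 in DIO-MS 2 and at 6.28 in RW-SS 1. Myc was low at 5.15 in DIO-SC 1 and high at 7.02 in RW-MS 7, and Btg2 was high at 9.67 in RW-MS 7, the array on which lymphocyte markers were high. The part of those cells was not tested further.

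The response to smoke differed between diets, by the interaction term of limma, for Gadd45g with mainstream (-0.64) and sidestream smoke (-0.36). In the fit of every probe set, the sidestream interaction also passed the threshold for Ccnd1 1417419_at (0.28), Ccng1 1450016_at (0.27), Gadd45b 1449773_s_at (0.41) and Mdm2 1427718_a_at (0.31). For these 4 genes the brightest probe set had no such interaction past the threshold. Without RW-SS 7 the interaction of the Ccng1 probe set was 0.17 and did not pass it, while the other 3 (0.28, 0.36 and 0.26) did.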

How the results depend on the processing

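Of the 21 calls, 9 were kept under all 14 alternatives and in all 45 fits that left out 1 array: the rises of Gadd45a with mainstream smoke in RW mice and with sidestream smoke in both diets, the falls of Ccnd1 with sidestream smoke in both diets and of Cdkn1a with mainstream smoke in DIO mice, and for Gadd45g the rise with sidestream smoke in RW mice, the diet difference in mainstream smoke and the mainstream interaction. The other 12 were lost in at least 1. With the mean of all probe sets Mdm2 turned direction, to -0.15 with sidestream smoke in RW mice and -0.14 for sidestream against mainstream smoke in RW mice. The cause of the changes below was not tested.

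The counts of genes past the threshold moved as follows. With no filter on dim genes, sidestream against mainstream smoke in DIO mice gave 1 in place of 2. With the lowest 50% left out, sidestream against mainstream smoke in RW mice gave 2 in place of 1. Myc was not tested there. The mean of all probe sets gave 5 for sidestream smoke in RW mice (3), 2 for the diet in sidestream smoke (0), 2 and 0 for sidestream against mainstream smoke in RW and DIO mice (1 and 2) and 2 for the sidestream interaction (1). Trend and robust settings gave 2 for sidestream against mainstream smoke in RW mice. A fit of only the groups compared gave 5 for sidestream smoke in DIO mice (3), 1 for the diet in mainstream smoke (2) and 0 for sidestream against mainstream smoke in RW mice. Array weights gave 5 for mainstream smoke in RW and for sidestream smoke in DIO mice (3 and 3), 1 for the diet in sidestream smoke, and 0 and 4 for sidestream against mainstream smoke in RW and DIO mice. Atrial markers as a covariate, and the 3 arrays with low atrial markers left out, each gave 1 for the diet in mainstream smoke and 0 for sidestream against mainstream smoke in RW mice. Fat markers as a covariate gave 5 for mainstream smoke in RW mice, and leukocyte markers as a covariate, chosen after the data were seen, gave 4 for the diet in air (2).

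Leaving out 1 array at a time gave 2 to 5 for mainstream and 3 to 3 for sidestream smoke in RW mice, 2 to 3 and 3 to 5 in DIO mice, 0 to 3, 1 to 3 and 0 to 1 for the diet in air, mainstream and sidestream smoke, 0 to 2 for sidestream against mainstream smoke in either diet, 1 to 1 for the mainstream and 0 to 1 for the sidestream interaction.

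A further quantile normalization gave 0 for sidestream against mainstream smoke in DIO mice. Over all tested genes it moved the split of higher and lower calls from 2140 and 820 to 1081 and 993 for sidestream smoke in DIO mice, from 340 and 83 to 240 and 118 for mainstream smoke in DIO mice, from 643 and 1239 to 857 and 823 for the diet in air, from 1832 and 1198 to 1246 and 1243 for the diet in sidestream smoke, from 148 and 89 to 33 and 73 for sidestream against mainstream smoke in DIO mice, and from 1700 and 941 to 658 and 885 for the sidestream interaction.

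Replicate numbers are shared across groups. Over 106 pairs of arrays with the same title number, correlations of deviations from the group means ran from -0.56 to 0.47, with a median of -0.0048. Of these, 34 were over 0.1. For the label number the range was the same, the median was -0.0268 and 32 were over 0.1. Pairs of unlike numbers were not compared, so whether the numbers pair the hearts was not tested. With a replicate block by title number the diet in sidestream smoke gave 1 gene in place of 0, and with a replicate block by label number the diet in mainstream smoke and sidestream against mainstream smoke in DIO mice each gave 1 in place of 2.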
